A study of Mus musculus with 22 samples.

Results

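Hub anchors were 10 kb bins of the genome at which many chromatin loops met in a Hi-C study of mouse erythroblasts re-entering G1 phase after mitosis. A loop had 2 anchors, and each anchor was placed at the 10 kb bin of the loop summit, the pixel of the contact map that the authors' calls chose to stand for the loop. Of 16370 deposited loops, 12817 had a summit of 10 kb, and these used 17538 anchor bins. A bin was taken as a hub when it anchored 5 or more loops, which gave 227 hub bins, 1.29% of all anchor bins. The hubs held 1240 of 25634 loop ends (4.84%) and anchored 1195 loops, of which 45 joined 2 hubs. The comparison was made with 3131 loops whose 2 anchor bins were each used once. The choice rested on where loops were called and not on their strength, but the calls came from the same maps in which strength was measured, so being called and being strong are linked. At the threshold, the loops of 437 bins with 4 loops had a median of 2.17 in mid-G1 controls, and those of 148 bins with 5 loops had 2.25; strength is the ratio of observed to locally expected contacts.

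The cells were G1E-ER4, a subline of the GATA1-null mouse proerythroblast line G1E. Both CTCF alleles carried a C-terminal AID-mCherry fusion, and a retroviral construct supplied the plant receptor OsTiR, so that auxin led to degradation of CTCF. All groups, controls included, carried these changes. Cells were arrested in prometaphase with nocodazole and taken at release, or released for 30, 60 or 120 min to give ana/telophase, early-G1 and mid-G1 populations. Cells were sorted on DNA content and mCherry, with the mitotic mark pMPM2 for prometaphase and reduced GFP for ana/telophase. Auxin-treated cells (+auxin) received auxin late in the arrest and during release, and untreated controls (-auxin) did not. For ana/telophase the protocol in the labels gives a slightly shorter release than the sample titles, which are followed here. The ana/telophase cells carried the receptor with GFP-MD, a GFP with a mitotic degron, in place of GFP. The 18 libraries, 2 per condition in the first 3 stages and 3 per condition in mid-G1, were merged by the authors into 8 maps before loops were measured. The loop table used here therefore gave 1 strength value per loop and merged map and no replicate spread. Maps of single libraries were not analysed here, no test between treatments was run, and all values are descriptions. Errors of medians are SDs between chromosomes, taken over the median of each chromosome with at least 10 loops, and intervals of shares are 95% Wilson intervals that cover counting error only. Loops of 1 hub share an anchor and are not independent.

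CTCF is a zinc-finger protein that binds a directional DNA motif. Cohesin extrudes loops of chromatin and is known to halt at CTCF sites, preferentially when the motif points into the loop. An anchor that serves as the end of many loops is known from such sites, where cohesin meets a row of partners on 1 side, and from active promoters and enhancers, cis-regulatory elements (CREs), which contact each other in small clusters. Mitosis removes loops and much of CTCF from chromosomes, and both return as cells enter G1.

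The authors had sorted loops by the marks at their anchors. Structural loops had CTCF and cohesin at both ends with a CRE at no more than 1 end, dual-function loops had CTCF/cohesin and a CRE at both ends, and CRE loops had CREs at both ends and CTCF/cohesin at no more than 1. All remaining loops are called other here. Since the loops of a hub share 1 end, loops of different categories at the same hub differ in what lies at the partner.

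Anchor use fell off steeply. There were 12274 bins with 1 loop, 3428 with 2, 1172 with 3 and 437 with 4. Among the hubs, 148 had 5 loops, 59 had 6, 15 had 7, 4 had 8 and 1 had 9. Chromosome 1 held 38 hubs, 16.7% of all, against 9.62% of the loops. Chromosomes 2 and 3 followed with 24 and 22 hubs, and the X chromosome, with 165 loops, had none. Per 100 anchor bins, hubs ranged from 0.515 on chromosome 7 to 2.47 on chromosome 1, leaving out the X chromosome. The median distance to the nearest other hub was 1060 kb, 110 of 227 hubs lay within 1 Mb of another, and only 2 hubs touched. Of the other ends of hub loops, 41.9% lay in bins used once, 50.8% in bins used 2 to 4 times and 7.26% in hubs. Over all loop ends these shares were 47.9%, 47.3% and 4.84%.

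To show the kind of sequence present at hubs, matches to the core of the CTCF motif were searched on both strands of the hub bins. The core was taken as CCA, any 2 bases, AG, any 2 bases and GGC. The build is mm9 (NCBIM37). Each sequence below is read 5′ to 3′ on the strand of the match, with the core in capitals. The first 4 come from hubs described below that had all loops on 1 side and matches on 1 strand, and they show which way the core pointed.
Hub with 9 loops, all to lower coordinates, chr1:138355658-138355699, minus strand: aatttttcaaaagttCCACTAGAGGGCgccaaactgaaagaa
Hub with 8 loops, all to higher coordinates, chr1:181789519-181789560, plus strand: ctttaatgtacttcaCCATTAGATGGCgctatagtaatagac
Hub with 5 loops, all to higher coordinates, chr1:156635369-156635410, plus strand: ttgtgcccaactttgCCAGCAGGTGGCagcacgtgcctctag
Hub at Myc with 5 loops, all to higher coordinates, chr15:61814971-61815012, plus strand: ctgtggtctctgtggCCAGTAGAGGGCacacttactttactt
In each of these 4 the core, read in its own direction, pointed into the loops. A second set shows cores with a shared surrounding sequence, at hubs on different chromosomes.
Hub with 7 loops, chr1:159004397-159004438, minus strand: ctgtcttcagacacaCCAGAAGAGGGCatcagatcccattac
Hub at Ube2b and Cdkl3 with 5 loops, chr11:51816552-51816593, plus strand: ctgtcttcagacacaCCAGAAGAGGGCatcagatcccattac
The 42 bases were identical in the last 2. Rodent B2 repeats are known to carry a CTCF motif, and whether these cores lie in such repeats was not tested. Of 324 core matches in hubs, 62 (19.1%) were followed by ATC, any base and GATC as these are, and the share was 19.2% in bins used once.

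A core match was present in 163 of 227 hub bins (71.8%), in 62.0% of bins used once and in 64.3% of all anchor bins. Such a short core occurs often by letters alone, and a match is not a measured binding site. The strand of the matches went with the side of the loops. Among 58 hubs with all loops to higher coordinates, 21 had matches on the plus strand only and 5 on the minus strand only. Among 67 hubs with all loops to lower coordinates, 8 had matches on the plus strand only and 26 on the minus strand only. Hubs with loops on both sides were nearly even, with 19 and 23. Of the one-sided hubs with matches on a single strand, 47 of 60 (78.3%, interval 66.4 to 86.9%) pointed towards the loops. This share was 64.9% (63.0 to 66.6%) for bins used once that anchored a structural or dual-function loop, and 68.1% (65.9 to 70.2%) for bins with 2 to 4 loops on 1 side.

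Hub loops were richer in dual-function loops and poorer in loops of no category. Of the 1195 hub loops, 31.8% (29.2 to 34.5%) were dual-function, 30.9% (28.3 to 33.6%) CRE, 26.9% (24.5 to 29.5%) structural and 10.4% (8.77 to 12.2%) other. Loops of bins used once were 12.7% dual-function, 25.4% CRE, 28.0% structural and 33.9% other. Over all 10 kb loops the contrast was smaller, with 21.8% dual-function and 20.7% other. The share of dual-function loops rose over the first steps in the number of loops at the busier anchor, from 12.7% at 1 to 21.0% at 2, 24.0% at 3 and 30.9% at 4, and was 31.4% at 5, 34.4% at 6 and 27.6% at 7 or more (n = 145). Most hubs were mixed. Only 30 of 227 held a single category, 116 held 2, 70 held 3 and 11 held all 4. There were 19 hubs of CRE loops alone, 7 of structural loops alone, 4 of dual-function loops alone and none of other loops alone. Read through their labels, 152 hubs carried both CTCF/cohesin and a CRE, 45 had structural loops but no CRE or dual-function loop, and 30 had CRE loops but no structural or dual-function loop. The labels do not say that the missing mark was absent from the hub itself, since a structural loop may have a CRE at 1 end and a CRE loop may have CTCF/cohesin at 1 end.

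**Figure D1:**
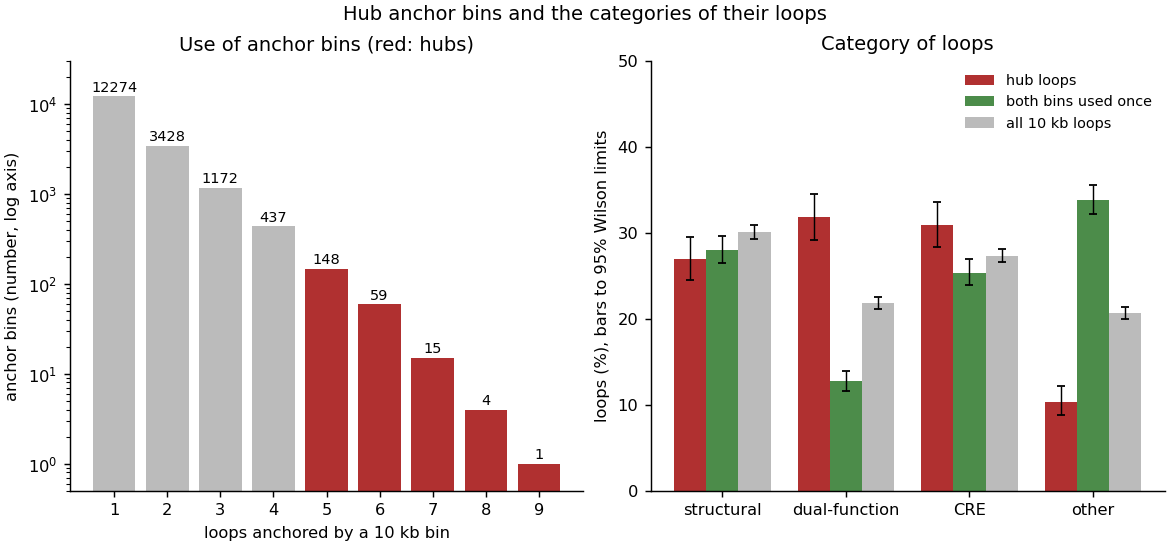
Left, number of 10 kb anchor bins (log axis) by the number of loops they anchored, with the 227 hubs in red. Right, percent of loops in each category among 1195 hub loops, 3131 loops with both bins used once and all 12817 loops, with 95% Wilson intervals. Dual-function loops made up 31.8% of hub loops against 12.7% of loops used once, and other loops 10.4% against 33.9%.

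At 125 of 227 hubs (55.1%, interval 48.6 to 61.4%) all loops ran to the same side, 58 to higher and 67 to lower coordinates. Over all hub ends, 586 of 1240 pointed to higher coordinates (47.3%). The share of one-sided hubs was 60.1% at 5 loops (n = 148), 49.2% at 6 (n = 59) and 33.3% at 7 (n = 15). Even bins with only 2 loops were not always one-sided (77.4% of 3428). One-sidedness went with the make-up of the hub. It was 75.6% (61.3 to 85.8%) in the 45 hubs without a CRE or dual-function loop, 55.3% (47.3 to 62.9%) in the 152 hubs with both marks and 23.3% (11.8 to 40.9%) in the 30 hubs without a structural or dual-function loop. When only 80% of the loops had to lie on 1 side, 74.9% of hubs counted as one-sided. When touching anchor bins were merged before counting, 33.0% of the 940 resulting hubs were one-sided.

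Hub loops were longer. Their median size was 260 ± 70.5 kb (SD over 19 chromosomes), against 140 ± 17.5 kb for loops used once and 170 kb for all 10 kb loops, and the hub median was higher on 19 of 19 chromosomes. Of the hub loops, 19.6% spanned more than 500 kb and 38.2% at most 200 kb. Of loops used once these shares were 9.07% and 66.1%. The difference was present in each category, with 290 against 180 kb for structural, 270 against 120 kb for dual-function, 260 against 120 kb for CRE and 190 against 130 kb for other loops. Within a hub the loops covered a wide range. The shortest loop of a hub had a median of 100 kb, the longest of 550 kb, and the ratio of longest to shortest was 4.62 (quartiles 3.24 and 7.42). Neighbouring partners on the same side lay 50 kb apart at the median, and 47.5% of these 911 gaps were under 50 kb. The smallest gap was 20 kb, and the authors had merged pixels within about that distance into 1 loop.

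Expected contacts were taken from a donut of pixels around the summit, so that a strength of 1 means no enrichment. Without auxin, hub loops rose from a median of 1.14 ± 0.11 at prometaphase through 1.87 ± 0.17 at ana/telophase and 2.25 ± 0.15 at early-G1 to 2.30 ± 0.23 at mid-G1. For loops used once these medians were 1.03 ± 0.03, 1.49 ± 0.09, 1.73 ± 0.11 and 1.82 ± 0.16. In +auxin cells hub loops reached 1.08 ± 0.06, 1.45 ± 0.18, 1.59 ± 0.23 and 1.59 ± 0.16, and loops used once 1.01 ± 0.04, 1.24 ± 0.05, 1.36 ± 0.05 and 1.37 ± 0.06. Hub loops had the higher median on 19 of 19 chromosomes in each -auxin map and on 18 of 19 in each +auxin map. Hub loops had gained most of their strength by early-G1 in -auxin cells, and in +auxin cells they stayed below the -auxin level of ana/telophase. In a population of cells, a loop that is weaker in every cell and a loop present in fewer cells cannot be told apart.

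Much of the difference went with loop size. In mid-G1 -auxin cells the hub median was 1.83 against 1.58 up to 200 kb and 2.59 against 2.36 between 200 and 500 kb, but 3.05 against 3.39 above 500 kb, where the chromosome SDs were 0.86 and 0.53. In +auxin cells hub loops had the higher median in this class too, 2.11 ± 0.52 against 1.78 ± 0.23. Above 500 kb hub loops also changed less with auxin, with a median log2 ratio of +auxin over -auxin of -0.42 ± 0.32 against -0.83 ± 0.32. The SD of the hub value rests on 8 chromosomes, and categories were not matched within this class. When loops used once were weighted to the mix of hub loops over these size classes, their median rose from 1.82 to 2.17. The lead of hub loops then fell from 0.48 to 0.13. In +auxin cells the lead fell from 0.22 to 0.12. Weighting them to the category mix left a lead of 0.50. Within 1 category and up to 200 kb, the medians were 1.98 against 1.93 for structural, 1.88 against 1.64 for dual-function, 1.67 against 1.40 for CRE and 1.70 against 1.56 for other loops. Sizes were not matched inside a class. Up to 200 kb, the median size was 130 kb for hub loops and 100 kb for loops with at least 1 anchor used once. The part of loop size in the difference was otherwise not tested.

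**Figure D2:**
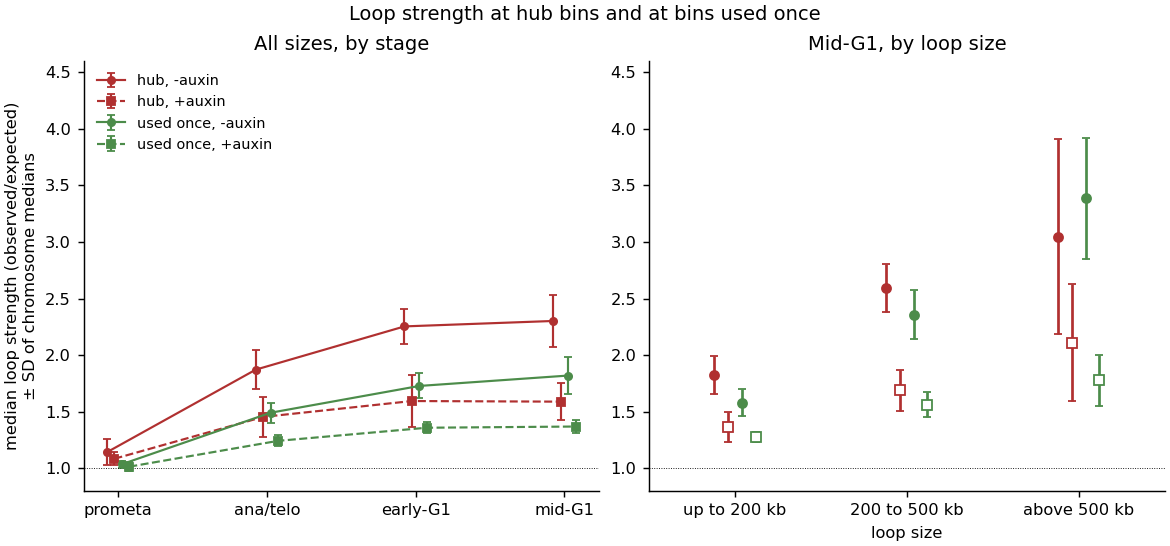
Median loop strength (observed over expected contacts) of hub loops (red) and of loops with both bins used once (green), -auxin (solid lines, filled points) and +auxin (dashed lines at left, open squares at right), error bars ± SD between chromosome medians. Left, by stage, where hub medians were higher in all 8 maps. Right, in mid-G1 by loop size, where in -auxin cells hub loops led up to 500 kb (2.59 against 2.36 between 200 and 500 kb) but not above (3.05 against 3.39), while in +auxin cells they led above 500 kb as well (2.11 against 1.78).

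With auxin, structural hub loops lost most strength and CRE hub loops least. Over all categories, the median log2 ratio of +auxin over -auxin strength went from -0.04 ± 0.06 (prometaphase) to -0.32 ± 0.13 (ana/telophase), -0.48 ± 0.17 (early-G1) and -0.46 ± 0.18 (mid-G1). For loops used once it was -0.03, -0.19, -0.27 and -0.35. In mid-G1 hub loops had the lower median on 14 of 19 chromosomes. The mid-G1 difference of -0.12 depended on the setting. It was -0.02 after weighting to hub sizes, which gave loops used once a median of -0.44, -0.03 for hubs of 6 or more loops and -0.23 with touching bins merged. By category the mid-G1 medians of hub loops were -1.02 ± 0.18 for 322 structural loops, -0.51 ± 0.21 for 380 dual-function loops, -0.08 ± 0.11 for 369 CRE loops and -0.51 ± 0.10 for 124 other loops. The values of loops used once were -0.96, -0.53, -0.02 and -0.23. Hub and used-once medians in mid-G1 thus differed by less than their chromosome SDs in the 3 named categories. The exception was the other loops, where hub loops were lower at ana/telophase (-0.37 against -0.12), early-G1 (-0.52 against -0.18) and mid-G1, although only 4 chromosomes had enough such hub loops to give an SD.

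**Figure D3:**
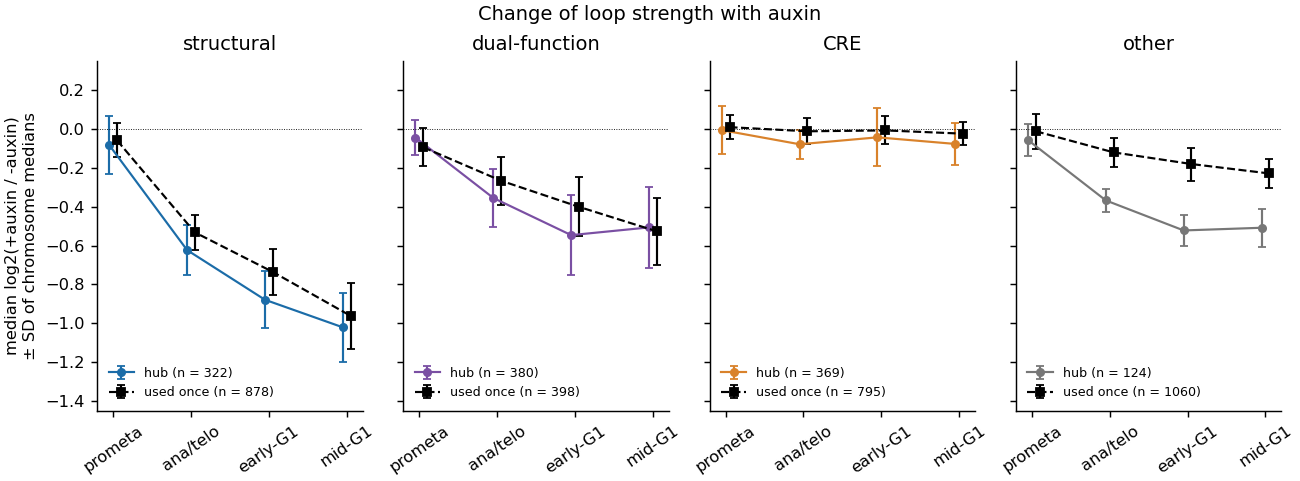
Median log2 ratio of +auxin over -auxin loop strength at each stage for hub loops (coloured, solid) and loops with both bins used once (black, dashed), in 4 panels by loop category. Error bars are ± SD between chromosome medians and n is the number of loops. Structural loops fell to -1.02 (hub) and -0.96 (used once) in mid-G1, CRE loops stayed near 0, and among other loops hub loops were lower (-0.51 against -0.23).

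A change of 1.5-fold or more is used as a fixed measure of size, with all 10 kb loops as the background. In prometaphase 150 of 1195 hub loops (12.6%) were weaker with auxin by this measure, against 11% of all loops, and 7.28% were stronger, against 7.66%. In ana/telophase 29.8% were weaker, against 24.4%, and 1.17% stronger, against 1.08%. In early-G1 43.0% were weaker, against 36.1%, and 2.93% stronger, against 2.93%. In mid-G1 509 hub loops (42.6%) were weaker, against 41%, and 36 (3.01%) stronger, against 3.16%. The excess of weaker hub loops over the background was thus largest in early-G1, and in mid-G1 the shares were close. In prometaphase, where median strengths were nearest to 1, loops passed 1.5-fold in both directions.

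By the deposited detection calls, which list the stage at which a loop was first called in each treatment, 843 hub loops were lost (called in -auxin cells only), 70.5% against 72.3% of all 10 kb loops. Another 225 (18.8% against 15.2%) were retained, and 127 (10.6% against 12.5%) were gained, that is called in +auxin cells only. Called hub loops appeared early. Without auxin, 27.9% were called by ana/telophase (interval 25.4 to 30.5%), against 14.5% (13.3 to 15.7%) of loops used once and 19.4% of all 10 kb loops. By early-G1 the shares were 65.2%, 47.7% and 55.2%. With auxin, 11.3% were called by ana/telophase, against 6.71% and 7.96%. By category, 36.1% of dual-function, 29.5% of CRE, 25.2% of structural and 4.84% of other hub loops were called by ana/telophase in -auxin cells. Over all 10 kb loops these shares were 30.3%, 21.7%, 16.7% and 8.70%, in the same order of categories. By category, 95.3% of structural, 68.9% of dual-function, 45.8% of CRE and 84.7% of other hub loops were lost. These shares were close to those of all 10 kb loops in the named categories (94.3%, 68.7% and 45.2%), and other loops had 80.1%. Among CRE loops 34.7% were retained at hubs, 27.2% over all 10 kb loops and 24.4% in loops used once, while 19.5%, 27.6% and 27.3% were gained.

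Loops of the same hub did not always share 1 fate. Over all hub loops 70.5% were lost and 10.6% gained. How often unrelated loops would share a fate was not tested. At 79 hubs some loops were lost and others gained, at 55 of these others were also retained, and at 81 hubs all loops were lost. In mid-G1, 192 hubs had a median change below 0. At 113 hubs every loop was weaker with auxin, at 111 loops moved both ways, and at 3 every loop was stronger. The SD of the mid-G1 log2 change among the loops of 1 hub was 0.41 (median over hubs, quartiles 0.31 and 0.52), close to the SD between the medians of different hubs (0.47). In prometaphase, where the -auxin strengths of hub loops had quartiles of 0.957 and 1.36, the SD within a hub was 0.39. At the 102 hubs with loops on both sides, the mean changes of the 2 sides differed by 0.38 at the median and had the same sign at 59.

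At most hubs that held both, structural loops had lower changes than other categories, and dual-function loops lower changes than CRE loops. Within a hub the hub end is held constant, but loop length was not matched. At 65 hubs with both structural and CRE loops, the mid-G1 mean change was -1.04 for structural and -0.18 for CRE loops (medians over hubs). The difference within a hub was -0.70 ± 0.66 (median ± SD over hubs), and structural loops were lower at 58 of the 65. For the pairs that follow the difference was smaller than its SD over hubs. At 110 hubs with dual-function and CRE loops it was -0.33 ± 0.42, with dual-function lower at 92. At 81 with structural and dual-function loops it was -0.35 ± 0.51, with structural lower at 65. At 64 with structural and other loops it was -0.41 ± 0.49, with structural lower at 56. At 41 hubs with CRE and other loops it was 0.12 ± 0.45, with CRE lower at 16. In prometaphase the structural loops were lower than CRE loops at 35 of the 65 hubs, with a difference of -0.01 ± 0.65. The split was present from ana/telophase (lower at 56 of 65, -0.42) and early-G1 (58 of 65, -0.62) on.

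Over whole hubs, make-up and response went together. The 45 hubs without a CRE or dual-function loop rose from 1.10 in prometaphase to 2.82 ± 0.93 (SD over hubs) in mid-G1 -auxin cells and reached 1.53 ± 0.33 with auxin, with a median change of -0.91 and all 45 below 0. The 152 hubs with both marks went from 2.28 ± 0.76 to 1.58 ± 0.48 in mid-G1, a median change of -0.52, with 134 below 0. The 30 hubs without a structural or dual-function loop stood at 1.88 ± 0.57 without and 1.91 ± 0.49 with auxin, a median change of 0.04, with 13 below 0. In early-G1 these 30 had a median change of 0.13 and 10 were below 0. Gene content also differed. A transcription start of a protein-coding gene lay in 28 of these 30 hubs (93.3%), in 81 of the 152 (53.3%) and in 6 of the 45 (13.3%). CREs include promoters, so the grouping by CRE labels is not independent of gene starts. Over all hubs the share was 50.7% (115 of 227), against 33.7% of bins used once. A further 46 hubs overlapped a gene without a start, and 66 held no protein-coding gene.

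**Figure D4:**
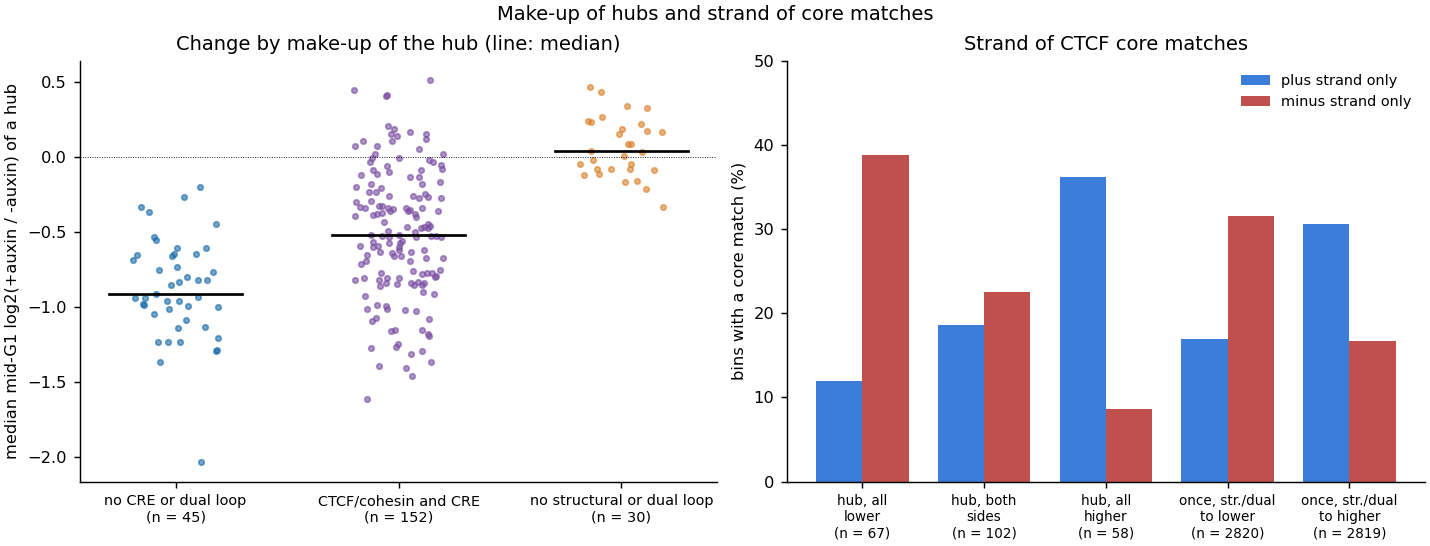
Left, each point is 1 hub, placed by the median mid-G1 log2 ratio of +auxin over -auxin strength of its loops, in 3 groups by the categories of its loops, lines at the medians (-0.91, -0.52 and 0.04). Right, percent of bins with matches to the CTCF core on the plus strand only or the minus strand only, for hubs by the side of their loops and for bins used once that anchored a structural or dual-function loop. Plus-strand matches led where loops ran to higher coordinates and minus-strand matches where they ran to lower ones.

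Strength rose with distance within a hub. In -auxin mid-G1 cells the shortest loop of each hub had a median strength of 1.63, the second shortest 2.12, the third shortest 2.33, the second longest 2.68 and the longest 2.85 (227 loops each). In +auxin cells these medians were 1.30, 1.54, 1.56, 1.76 and 1.84. Spearman's rho of size and strength, computed within each hub and given as a description, had a median of 0.60 in mid-G1 -auxin cells (quartiles 0.20 and 0.82), 0.49 in +auxin cells and 0.26 in prometaphase -auxin cells. The 5 to 9 loops of a hub share the hub bin and its coverage. In mid-G1 -auxin cells, loops with at least 1 anchor used once also rose with size. Their medians were 1.64 up to 200 kb, 2.43 between 200 and 500 kb and 3.33 above 500 kb. Longer loops were also more often structural or dual-function, 70.5% of the longest against 49.3% of the shortest. The mid-G1 change was -0.27 for the shortest and -0.60 for the longest loops. The longest were not the earliest, as 23.3% of them and 31.3% of the shortest were called by ana/telophase in -auxin cells.

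The 10 hubs with most loops were named by rule, and the loops of several are described one by one. The hub with 9 loops lay at chr1:138350001-138360000, where no protein-coding gene is annotated, 20 kb from a called boundary. Its partners lay 150 to 590 kb away, all towards lower coordinates, with 4 structural, 4 dual-function and 1 CRE loop. The medians of its loops were 1.00, 1.96, 2.55 and 2.62 from prometaphase to mid-G1 without auxin, and 0.95, 1.43, 1.51 and 1.68 with auxin. In mid-G1 its loops ran from 1.86 to 3.59 without and from 1.25 to 2.01 with auxin. All 9 loops were weaker with auxin, by log2 changes of -0.97 to -0.48, and none was called in +auxin cells. Its CRE loop, at -0.50, changed like the rest.

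Other hubs on chromosome 1 showed other patterns. The hub at chr1:181780001-181790000, also without a gene, had 8 dual-function loops, all towards higher coordinates and 270 to 570 kb long. Partners of these loops held starts of Psen2, the catalytic subunit of gamma-secretase, and of Cdc42bpa, a kinase of the cytoskeleton. Its mid-G1 strengths were 2.32 to 3.96 (median 2.72) without and 1.38 to 1.80 (median 1.75) with auxin, so that the 2 ranges did not overlap. The hub at chr1:168080001-168090000 lay in Gpa33, which encodes a cell-surface antigen, and had 5 structural and 3 other loops, 6 of them to lower coordinates. Its 380 kb structural loop was by far its strongest, at 6.45 without and 2.74 with auxin, and its other loops lay between 2.15 and 2.72 without auxin. The hub at chr1:167390001-167400000 held the starts of Dcaf6 and Brp44, which encodes a mitochondrial pyruvate carrier subunit. Its 8 loops were short (70 to 270 kb) and weak, with medians of 1.46 without and 1.53 with auxin, and their changes ran from -0.48 to 0.58.

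Apart from the hub at Btg2, which had 8 loops and is described below, the remaining hubs of the 10 had 7 loops each. Of 15 hubs with 7 loops, the rule took the 5 with the highest summed mid-G1 strength without auxin, so they stand for strong hubs and not for all busy ones. Loops whose busier anchor had 7 or more loops had a median change of -0.35, against -0.52 at 5 loops. At chr16:58660001-58670000, 7 loops of 150 to 1500 kb had a mid-G1 median of 4.45, which was 1.06 with auxin. The median over its loops had been 2.54 in ana/telophase and 2.81 in early-G1 without auxin. Of these 7 loops 6 fell, by log2 changes of -2.25 to -1.09. The shortest, a dual-function loop of 150 kb, was stronger with auxin (1.99 without and 3.44 with, a change of 0.79) and was called in both treatments. At chr1:38840001-38850000, where a boundary was called in the same bin, 6 structural and 1 other loop went from a median of 2.81 to 1.28, and all 7 were lost. The loops of 580 to 620 kb there changed by -2.01 to -1.60, and the loops of 70 and 150 kb by -0.27 and -0.36. At chr1:159000001-159010000, the hub with the repeated core, 2 structural and 5 other loops ran to lower coordinates, with medians of 2.61 without and 1.38 with auxin. Its 2 structural loops changed by -1.46 and -1.47, and its 5 other loops by -1.15 to -0.22. At chr6:71750001-71760000, in Reep1, which shapes the endoplasmic reticulum, 4 structural and 3 other loops ran to lower coordinates. Their strengths rose with length from 0.77 at 70 kb to 4.35 at 640 kb without auxin, and lay between 0.86 and 2.07 with auxin. The hub at Ppid, a cyclophilin gene, at chr3:79390001-79400000 lies on the chromosome that carries a translocation. Its 7 loops ran from 1.71 to 6.30 without and from 1.23 to 2.80 with auxin, and its CRE loop of 570 kb (0.34) was the only one that was stronger.

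Hubs of CRE loops looked different. The hub at chr1:135970001-135980000 held the start of Btg2, an antiproliferative gene, and anchored 7 CRE loops and 1 other loop on both sides, 140 to 1050 kb away. In mid-G1 its loops had strengths of 1.13 to 2.99 (median 1.63) without and 1.28 to 3.14 (median 1.87) with auxin. All 8 loops were stronger with auxin in mid-G1, by log2 changes of 0.04 to 0.66. Its partners held starts of Mdm4, a regulator of p53 that was itself at a hub, and of Ppp1r15b, Zc3h11a, Optc, Cyb5r1 and Kdm5b. The hub at chr2:172840001-172850000 held the start of Rbm38, which encodes an RNA-binding protein, and anchored 7 CRE loops of 430 to 1310 kb. Its medians were 1.05, 2.15, 2.12 and 2.22 across the 4 stages without auxin and 1.43, 2.15, 3.15 and 2.90 with auxin. All 7 loops were stronger with auxin in mid-G1, by 0.09 to 0.53, including 3 that the detection calls list as lost. One partner held Rab22a, itself at a hub of 6 loops, and 2 held Gnas, the gene of a stimulatory G-protein subunit. The third hub with mostly CRE loops, at chr16:91360001-91370000, had 4 CRE and 3 dual-function loops, all to higher coordinates. There all 7 loops were weaker with auxin, by -1.12 to -0.07, and all were lost, with Tmem50b, Son, Gart, Atp5o and Rcan1 at partners. The 4 CRE loops there changed by -0.60 to -0.07.

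The extremes of the mid-G1 change were chosen by that value, so their sizes are given only as a description. The lowest median, -2.04, belonged to chr1:156630001-156640000, whose 4 structural and 1 other loop ran 200 to 490 kb to higher coordinates. Its strengths were 3.94, 6.07, 2.66, 7.07 and 5.02 without auxin and 1.82, 1.45, 1.04, 1.48 and 1.22 with auxin, in order of loop length. The 2 sets did not overlap. At chr10:92510001-92520000 the median was -1.46, and strengths fell from 3.07 to 6.35 without auxin to between 1.43 and 1.84 with auxin. The highest median, 0.51, belonged to the hub at the starts of Iscu, a scaffold of iron-sulfur cluster assembly, and Sart3 at chr5:114220001-114230000. Its 5 loops were 1.33, 1.03, 2.55, 1.44 and 1.43 without and 0.88, 1.47, 1.61, 2.16 and 2.42 with auxin, so the 2 sets overlapped. The loops of 70 and 180 kb, both dual-function, became weaker there, and the other 3 stronger. The hub at Ube2b and Cdkl3 (chr11:51810001-51820000) had a median of 0.47, and the hub at Zfp703 (chr8:28080001-28090000) had 0.45, with strengths of 0.82 to 2.72 without and 1.18 to 2.76 with auxin.

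**Figure D5:**
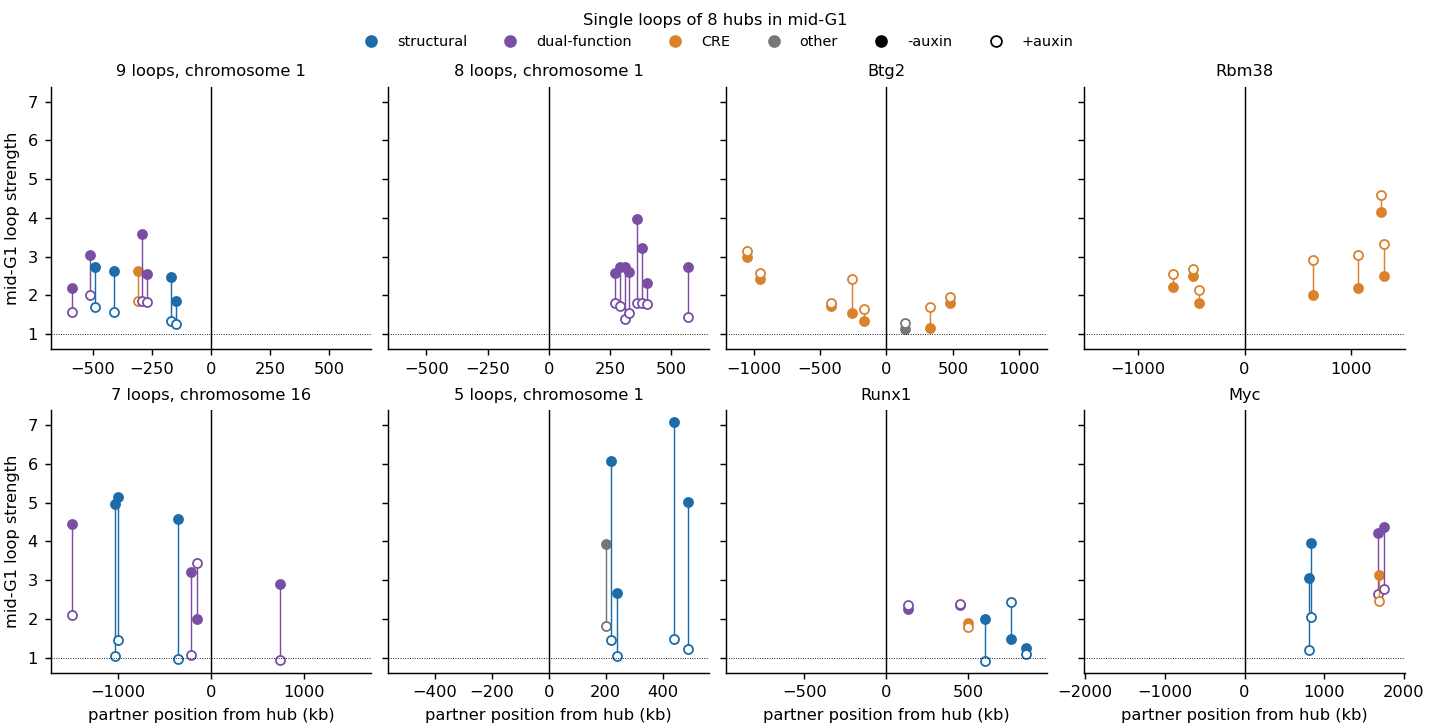
Mid-G1 strength of single loops at 8 named hubs, by the position of the partner in kb from the hub (vertical line; positive is towards higher coordinates), coloured by category, filled for -auxin and open for +auxin, each loop joined by a line. At the hubs with 9 and 8 loops on chromosome 1 all open points lie below their filled points, at Btg2 and Rbm38 all lie above, and at the chromosome 16 hub and at Runx1 loops moved both ways.

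Myc and Runx1 were the listed genes that started at hubs. Of 42 listed erythroid regulators and products, 39 were found in the annotation, 25 started in an anchor bin and 2 of these in a hub. As background, 115 of 6441 anchor bins with a transcription start (1.79%) were hubs. No Hox gene (15 of 39 started in an anchor bin) and no gene of CTCF or cohesin (7 of 10) started in a hub. The hub at Runx1, a transcription factor of blood formation, lay at chr16:92690001-92700000 and had 6 loops to higher coordinates, 130 to 850 kb long. The partner of the 130 kb loop held another start of Runx1. In order of length their mid-G1 strengths were 2.25, 2.37, 1.89, 2.00, 1.49 and 1.25 without and 2.37, 2.39, 1.78, 0.92, 2.44 and 1.10 with auxin. The 2 dual-function loops and the CRE loop were retained and changed by -0.08 to 0.07. The 3 structural loops were lost by the calls and changed by -1.12, 0.71 and -0.18. The hub at Myc, a transcription factor of growth and proliferation, lay at chr15:61810001-61820000 and reached 810 to 1750 kb to higher coordinates. Its 5 loops had strengths of 3.06, 3.96, 4.21, 3.14 and 4.38 without and 1.19, 2.06, 2.65, 2.47 and 2.76 with auxin. Every loop of Myc was weaker with auxin. The 2 structural loops at 810 and 830 kb changed by -1.36 and -0.95, and the 3 loops of 1670 to 1750 kb by -0.67, -0.34 and -0.66. The median over the loops of Myc had been 1.23, 2.67, 3.21 and 3.96 across the stages without auxin, and 0.95, 2.27, 2.28 and 2.47 with auxin.

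Hubs lay near boundaries of domains. A called boundary was within 20 kb of 120 of 227 hubs (52.9%, interval 46.4 to 59.3%), against 26.3% (25.5 to 27.0%) of bins used once. Within 10 kb the shares were 33.0% and 15.6%. In the same bin they were 4.41% (10 hubs) and 5.11%, so no excess was seen in the boundary bin itself. An offset in the placement of boundary coordinates was not checked. The share within 20 kb was 64.4% in hubs without a CRE or dual-function loop, 53.3% in hubs with both marks and 33.3% in hubs without a structural or dual-function loop. For 61.7% of these 120 hubs the nearest boundary belonged to cluster2 of the authors' 5 boundary clusters, against 47.9% of the bins used once with a boundary that near and 31.9% of all 6376 boundaries. Cluster1 made up 20.8% and cluster3 16.7%. A boundary near several bins counts once for each. The strength of boundaries near hubs, ΔIS, the rise of the insulation score from the boundary to its flanks, had medians of 0.123, 0.664, 1.16 and 1.21 across the 4 stages without auxin, and of 0.0972, 0.397, 0.602 and 0.669 with auxin. Near bins used once the mid-G1 medians were 0.882 and 0.553. In mid-G1 the quartiles near hubs were 0.932 and 1.55 without auxin and 0.441 and 1.01 with auxin.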

How the data were processed

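In situ Hi-C libraries of G1E-ER4 cells were aligned to mm9 with Bowtie2 by the authors, who used HiC-Pro and merged the replicates of each condition. Loops were called with a modified HICCUPS in each map. Pixels called in nearly all maps and pixels beyond 2000 kb were removed, and clustered pixels were merged, which can join or split partners of a hub. For each loop the authors deposited a ratio, observed over donut-expected contacts, averaged over 9 pixels. For each boundary they deposited a signal, ΔIS, with no value below 0. Categories, detection calls and clusters are the authors' labels.

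From these, loops per 10 kb summit bin were counted, and medians, shares and log2(+auxin / -auxin) without a pseudocount were computed (pandas 2.3.3, SciPy 1.17.1), after the code was tested on simulated loops. No loop of a hub lacked a ratio. Gene positions were those of protein-coding genes in the GENCODE vM1 annotation. Loops with a 25 kb summit and the 4 triptolide libraries were not used, except that the former entered 1 alternative. The contacts behind a single value are not given, so its precision is unknown. The loop and boundary tables hold values of merged replicates, maps of single libraries were not analysed here, and no test was run. Hubs named were the 10 with most loops (ties by summed mid-G1 strength without auxin), the 3 busiest with mostly CRE loops, the 3 lowest and 3 highest mid-G1 medians, and hubs at listed genes. The members, lists and settings were chosen with earlier results of these data known.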

Additional observations from a re-analysis of the deposited data

How the results depend on the processing

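The number of hubs depended on how anchors were counted. It was 664 at 4 or more loops, 79 at 6 or more, 506 with 25 kb loops added, 51 when partners under 50 kb apart counted as 1, and 940 when touching bins were merged before counting. With hubs of 4 or more loops, 30.8% of hub loops were structural, 27.4% CRE and 24.7% called by ana/telophase. With 6 or more, 23.0% were structural, 34.8% CRE and 67.0% lost, and 45.6% of hubs were one-sided. With touching bins merged, 30.5% were structural, 28.4% dual-function, 25.5% CRE, 15.6% other, 73.5% lost and 21.8% called by ana/telophase, 33.0% of hubs were one-sided, the SD within a hub was 0.45, and 67.4% held a start and 91.4% a core match, as merged hubs are wider. The boundary share was 4.41% in the same bin, 33.0% within 10 kb and 73.1% within 50 kb, and 74.9% of hubs were one-sided at 80% of loops. Weighting to hub sizes cut the lead of hub loops in mid-G1 -auxin strength to 0.13. With touching bins merged, loops used once were 70.4% lost, so that hub loops had the higher share, while in the main setting they had the lower (70.5% against 73.6%). Weighting loops used once to hub categories gave them 70.8% lost, and weighting them to hub sizes 77.2%. In all, leaving out values that a setting could not touch, 109 of 142 recomputed values moved by less than their spread (counts by less than 1.5 times), with chromosome 3, which carries a translocation, or the 10 busiest hubs left out among the settings. No paired analysis was possible because the columns of the tables used here are values of merged replicates and carry no replicate number. Maps of single libraries were not analysed here.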
